A study of Mus musculus with 4 samples.

Results

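Peripheral glia are the Schwann cells that wrap the axons of nerves, including the nerves that run through the tissue around the ribs. They arise from the neural crest, depend on neuregulin from the axon, which they sense through the receptor pair ERBB2 and ERBB3, and are specified and kept in their fate by the transcription factor SOX10. As they mature, those that wrap large axons lay down myelin, a compacted membrane whose proteins include those encoded by Mbp and Pmp22. Several genes used as marks of this lineage are also active elsewhere: S100b is well known in chondrocytes, where SOX proteins drive it, and Pmp22 in growth-arrested fibroblasts.

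The 8 genes described here, Sox10, Foxd3, Erbb3, L1cam, Cdh19, S100b, Mbp and Pmp22, were chosen by name as genes of peripheral glia and myelin. All 8 were found by their symbol among the 55228 genes of the deposited count table, and all 8 were among the 16639 genes that passed the filter on low counts. The libraries held total RNA of rib cartilage cells from C57BL/6 mouse embryos at stage E17.5. There were 2 wild-type (WT) libraries and 2 Trim28 knockout (Trim28 KO) libraries. TRIM28 is a corepressor that KRAB zinc finger proteins bring to DNA. The labels give no Cre driver, allele or litter and do not say how many embryos went into a library, and p-values therefore reflect only how these samples differ among themselves, which may be technical.

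Totals ran from 18616896 to 20082123 counts. Trim28 had 225 and 186 CPM (the count relative to the library size, scaled by edgeR's TMM factors) in WT but 51.1 and 54.5 CPM in Trim28 KO, a 3.89-fold fall (edgeR quasi-likelihood adjusted p = 2.28e-07) that matched the labels of all 4 libraries. A gene was called when its p-value from that test, adjusted over all genes tested, was under 0.05. By this rule 17.4% of all genes tested were called, 8.64% higher and 8.77% lower in Trim28 KO. The libraries of the genotypes did not overlap in 58.0% of all genes. Without Trim28 KO 1 the calls fell from 1438 higher and 1460 lower to 702 and 572, and without Trim28 KO 2 to 906 and 807.

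Of the 8 genes, Cdh19 and S100b were higher and Mbp was lower in Trim28 KO, and the remaining 5 did not pass the test. Over all genes tested, 8.64% were higher and 8.77% lower. Cdh19 rose 8.59-fold, S100b rose 1.73-fold and Mbp fell 2.42-fold. The genotypes did not overlap in 6 of the 8 genes, beside 58.0% of all genes tested, the exceptions being Foxd3 and L1cam. The members thus moved in opposite directions, and their median log2 fold change was -0.21, beside -0.02 over all genes tested. In bulk RNA, fewer cells of a type and less RNA per cell cannot be told apart.

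**Figure D1:**
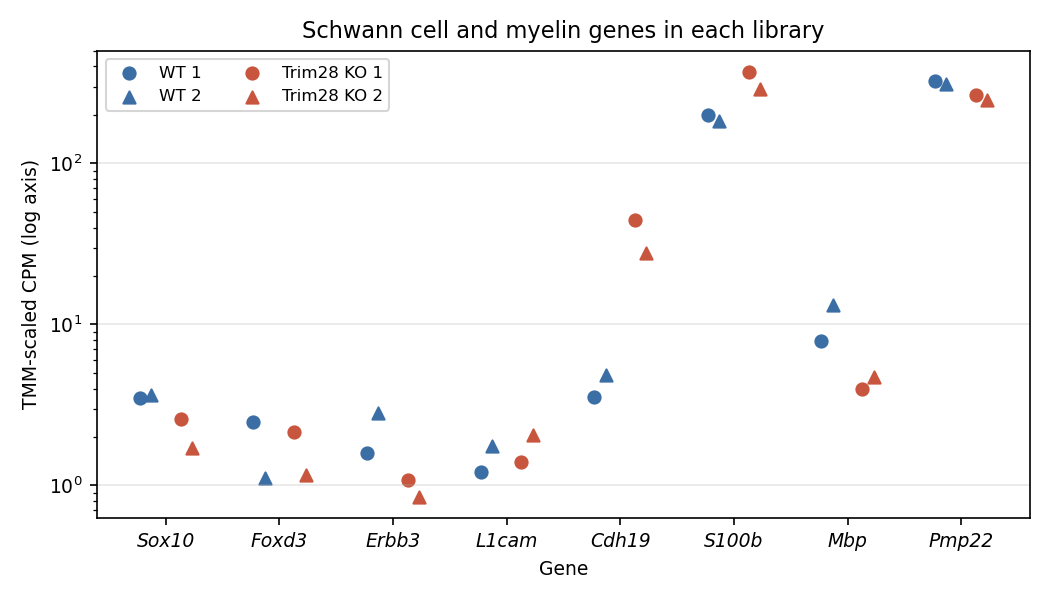
TMM-scaled CPM of the 8 genes in each of the 4 libraries, on a log axis (blue, WT; red, Trim28 KO; circles, replicate 1; triangles, replicate 2). Both Trim28 KO points of Cdh19 (44.7 and 27.7 CPM) lie far above both WT points (3.56 and 4.85 CPM), whereas those of Mbp lie below.

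The levels of the genes differed by orders of magnitude. Per kilobase of exon (RPKM, from TMM-scaled library sizes), Pmp22 stood at 138 and 132 in WT and S100b at 135 and 123, levels that were above those of 97.3% and 98.1% of all genes tested when averaged over the 4 libraries. Pmp22 and S100b together held 91.9% to 96.3% of the counts of the 8 genes in each library. The other 6 were rare transcripts in WT. In order of their mean they were Mbp (0.93 and 1.55 RPKM), Sox10 (1.15 and 1.19 RPKM), Cdh19 (0.83 and 1.13 RPKM), Foxd3 (1.07 and 0.48 RPKM), Erbb3 (0.26 and 0.47 RPKM) and L1cam (0.17 and 0.24 RPKM). In that order the WT ranges of Mbp and Sox10 overlapped, as did those of Cdh19 and Foxd3 and those of Pmp22 and S100b. Cdh19 lay just below Sox10, Erbb3 just below Foxd3 and L1cam just below Erbb3, each with 2 libraries and by margins smaller than the spread of either Mbp or Foxd3. In Trim28 KO the order at the top was reversed, with S100b at 249 and 197 RPKM above Pmp22 at 114 and 105 RPKM, and Cdh19, at 10.4 and 6.47 RPKM, stood apart from the rare genes.

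The windows before the transcript starts of the abundant pair are shown because these genes hold most of the counts and only S100b of the pair was called. The 250 bases before the RefSeq start of S100b (build GRCm38.p6, chr10:76253586-76253835, plus strand) and before the most upstream RefSeq start of Pmp22 (chr11:63128732-63128981, plus strand) were searched on both strands for 4 SOX core words. These were ACAAAG, the related word ACAATG, and the forms beginning with T, which are TCAAAG and, last, the word TCAATG. Capitals mark a match.
S100b: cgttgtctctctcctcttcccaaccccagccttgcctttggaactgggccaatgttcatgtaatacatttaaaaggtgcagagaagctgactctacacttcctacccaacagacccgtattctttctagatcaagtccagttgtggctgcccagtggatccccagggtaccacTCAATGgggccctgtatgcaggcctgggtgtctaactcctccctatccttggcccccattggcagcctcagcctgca
Pmp22: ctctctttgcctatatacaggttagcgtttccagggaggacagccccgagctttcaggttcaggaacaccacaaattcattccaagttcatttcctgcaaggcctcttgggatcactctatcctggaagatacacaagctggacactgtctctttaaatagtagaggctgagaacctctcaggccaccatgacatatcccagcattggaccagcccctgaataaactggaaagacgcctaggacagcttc
The S100b window held 1 such word, TCAATG, beginning 77 bases before the start, and the Pmp22 window held 0. Such a word was present in 39.4% of 32851 windows of the same length in the RefSeq table, so a match describes the letters only. Pmp22 has 4 starts in that table, and counts summed over a gene do not show which start was used. Of the 8 genes 4 had windows in the table, and those of Foxd3 and L1cam also held 0 such words.

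Sox10, on chromosome 15 from 79154908 to 79165240 (minus strand, GRCm38), encodes the transcription factor that defines the glial and melanocyte lineages of the neural crest. It had 66 and 72 counts in WT and 50 and 34 in Trim28 KO, or 3.50 and 3.64 CPM against 2.57 and 1.71 CPM. Both Trim28 KO libraries lay below both WT libraries, and the WT libraries were close to each other. Its fitted log2 fold change, -0.74 ± 0.34 (SE, 2 libraries per genotype; 95% interval of -1.44 to -0.04), did not pass the test (edgeR quasi-likelihood adjusted p = 0.141). The interval spans a difference close to none and a fall to 0.37 of the WT level.

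Foxd3, a forkhead factor of premigratory neural crest and of early glial precursors, lies on chromosome 4 from 99656299 to 99658622 (plus strand). It had 47 and 22 counts in WT and 42 and 23 in Trim28 KO, or 2.50 and 1.11 CPM against 2.16 and 1.15 CPM. The genotypes overlapped, with 1 higher and 1 lower library in each. Its exons share 89 bases with a miRNA gene, Gm23366, which had 0 counts in all 4 libraries. Fitted over the 4 libraries, the difference was -0.12 ± 0.45 on the log2 scale (95% interval of -1.05 to 0.81, edgeR quasi-likelihood adjusted p = 0.891). Its sign turned when a library was left out (0.60 without WT 1 and 0.27 without Trim28 KO 2). The interval runs from 0.48 to 1.75 times the WT level.

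Erbb3, the neuregulin receptor subunit of the Schwann cell lineage, on chromosome 10 from 128567523 to 128589652 (minus strand), had 30 and 56 counts in WT and 21 and 17 in Trim28 KO. In CPM these were 1.59 and 2.83 against 1.08 and 0.85, so both Trim28 KO libraries lay below both WT libraries. The log2 fold change of -1.19 ± 0.43 (95% interval of -2.08 to -0.30) was close to that of Mbp in size but was not called (edgeR quasi-likelihood adjusted p = 0.0584). Without WT 1 it was called (log2 fold change of -1.52, adjusted p = 0.0243). Its partner receptor gene Erbb2, named for this role after its value was seen, differed by -0.16 ± 0.20 on the log2 scale (adjusted p = 0.646, not called), and its sign turned without WT 1 (0.058).

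Of the 15 other genes listed for neuregulin and ErbB signalling, 11 were tested, with a median log2 fold change of 0.12. Of the 11, 2 were called, both lower, beside 17.4% of all genes called and 8.77% called lower. The falls were in Errfi1, which encodes a feedback inhibitor of the EGF receptor family (-0.73 ± 0.19, adjusted p = 0.00777), and Egfr itself (-1.20 ± 0.33, adjusted p = 0.0417). Neither belongs to the ERBB2 and ERBB3 pair, and both are expressed far beyond glia. The ligand gene Nrg1 was too rare to be tested, with 10 and 14 counts in WT and 4 and 8 in Trim28 KO. Egfr missed the threshold without Trim28 KO 1 (adjusted p = 0.0715), nor Errfi1 without Trim28 KO 1 or Trim28 KO 2 (adjusted p = 0.112 and 0.0529).

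L1cam encodes a cell adhesion molecule of axons and of immature and non-myelinating Schwann cells, and lies on chromosome X from 73853778 to 73896105 (minus strand). It was the rarest of the 8 per length. Its counts were 23 and 35 in WT and 27 and 41 in Trim28 KO, or 1.22 and 1.77 CPM against 1.39 and 2.06 CPM. The genotypes overlapped, and the log2 fold change of 0.20 ± 0.41 (95% interval of -0.65 to 1.06, edgeR quasi-likelihood adjusted p = 0.788) turned to -0.01 without WT 1 and to -0.10 without Trim28 KO 2. Its exons share 100 bases with those of Arhgap4 on the same strand, where reads of the pair cannot be told apart by position, and Arhgap4 had 46 and 50 counts in WT and 74 and 52 in Trim28 KO.

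Of 12 genes listed for the L1 family and axon-glia adhesion, 11 were tested (median log2 fold change of -0.13). Of the 11, 1 rose and 2 fell, beside 8.64% and 8.77% of all genes tested. Epb41l3, which encodes a membrane skeleton protein found beside the nodes of myelinated axons and in other tissues, fell by 1.14 ± 0.20 on the log2 scale (adjusted p = 2.13e-04). Nrp1, a semaphorin and VEGF co-receptor, fell by 0.62 ± 0.20 (adjusted p = 0.0310), a call lost without WT 2 (adjusted p = 0.112) or Trim28 KO 1 (0.369). Nfasc, the L1 family member neurofascin, rose by 0.88 ± 0.25 (adjusted p = 0.0163), but missed the threshold without Trim28 KO 2 (adjusted p = 0.203). All these adjusted p-values are from edgeR's quasi-likelihood test.

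Cdh19 showed the widest difference of the 8. It encodes a type II cadherin used as a mark of Schwann cell precursors, and lies on chromosome 1 from 110888326 to 110977584 (minus strand). It had 67 and 96 counts in WT and 868 and 552 in Trim28 KO, or 3.56 and 4.85 CPM against 44.7 and 27.7 CPM. The lower Trim28 KO library stood several times above the higher WT library. The log2 fold change was 3.10 ± 0.26 (SE, n = 2 per genotype, 95% interval of 2.56 to 3.64, edgeR quasi-likelihood adjusted p = 8.70e-08), and it stayed called in all 14 alternative settings, from 2.72 to 3.41.

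Cdh19 and Sox10 were also compared within each library. Per length, Cdh19 stood at 0.72 and 0.95 of the Sox10 level in WT, whereas in Trim28 KO it stood at 12.4 and 11.6 times that level. By the same measure S100b went from 118 and 103 to 295 and 352 times the Sox10 level, while Mbp overlapped between the genotypes, with 0.81 and 1.30 for WT against 0.555 and 0.996 for Trim28 KO. Erbb3 also overlapped, at 0.23 and 0.39 in WT and 0.21 and 0.25 in Trim28 KO. The ratios of Foxd3 also overlapped, while those of Pmp22 and L1cam were higher in both Trim28 KO libraries. Sox10 rests on 34 to 72 counts a library, so these ratios are coarse, and they were not tested.

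**Figure D2:**
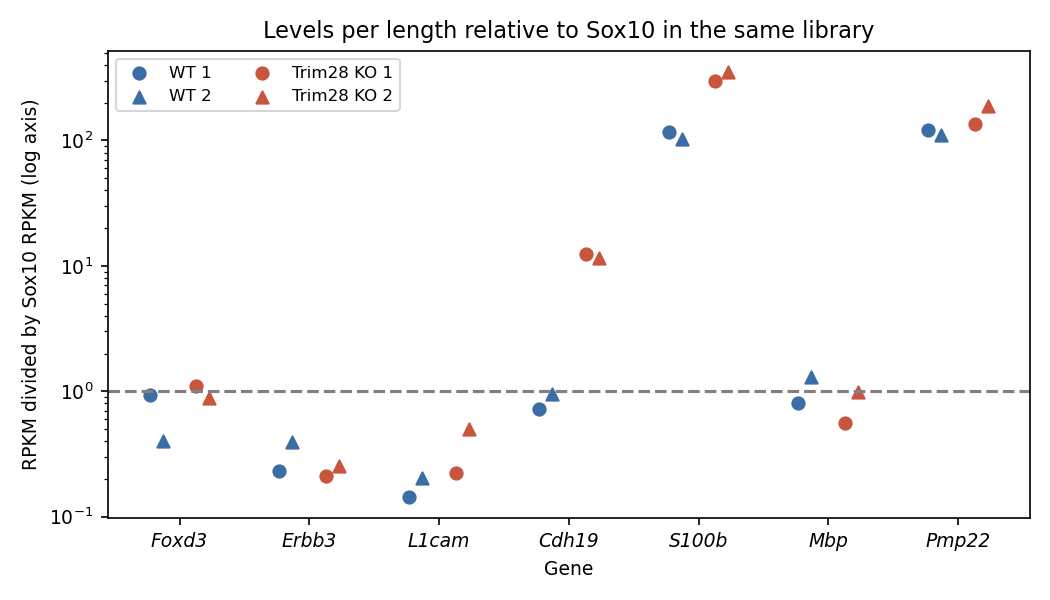
RPKM of the other 7 genes divided by the RPKM of Sox10 in the same library, on a log axis (blue, WT; red, Trim28 KO; circles, replicate 1; triangles, replicate 2). Cdh19 lies near 1 in WT, while its Trim28 KO points lie at 12.4 and 11.6, while Mbp and Erbb3 overlap between the genotypes.

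The 2 genes whose pattern over the 4 libraries was most like that of Cdh19 (Euclidean distance between centred log2(CPM + 1) values) were Fabp3, which encodes a fatty acid binding protein of heart and muscle (distance of 0.19), and Otor, which encodes otoraplin, a small secreted protein of the cochlea and cartilage (0.22). Fabp3 rose from 2.50 and 2.73 to 29.7 and 18.7 CPM and Otor from 8.66 and 10.4 to 105 and 66.1 CPM. Neither is a glial marker, and all 3 genes were higher in Trim28 KO 1 than in Trim28 KO 2. With 4 libraries, likeness of pattern holds little information. Within 1 Mb of Cdh19 only 1 other gene could be tested, Dsel (log2 fold change of 0.33 ± 0.18, edgeR quasi-likelihood adjusted p = 0.234), which was looked up after the rise of Cdh19 was seen.

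S100b, on chromosome 10 from 76253853 to 76261159 (plus strand), encodes a calcium-binding protein abundant in Schwann cells and astrocytes and also made by chondrocytes. It had 3773 and 3610 counts in WT and 7181 and 5814 in Trim28 KO, or 200.4 and 182 CPM against 370 and 292 CPM. Both Trim28 KO libraries were above both WT libraries, with Trim28 KO 1 the higher. On the log2 scale S100b rose by 0.79 ± 0.21 (95% interval of 0.36 to 1.22, edgeR quasi-likelihood adjusted p = 0.00923). The call was lost without Trim28 KO 1 (log2 fold change of 0.62, adjusted p = 0.141). Dip2a, which overlaps S100b on the other strand, had 643 and 665 counts in WT and 600 and 713 in Trim28 KO, and the annotated exons of the pair share 0 bases.

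The other genes of the S100 family gave no call. Of 12 genes listed for this family and its receptor Ager, 8 were tested and 0 were called by edgeR's quasi-likelihood test, with a median log2 fold change of -0.36. At an unadjusted p under 0.05, 1 was higher and 3 were lower. S100a1, which encodes the other S100 protein best known in chondrocytes, had a log2 fold change of -0.52 ± 0.20 (adjusted p = 0.0824), and S100a10 one of -0.55 ± 0.20 (adjusted p = 0.0616). DESeq2 called S100a10 lower (adjusted p = 0.0424), as did the quasi-likelihood test on genes of at least 5 CPM in 2 libraries (adjusted p = 0.0426). The 2 genes most like S100b in pattern were Ropn1l (distance of 0.02), which encodes a protein of cilia and sperm tails, and H2-T10 (0.05), an MHC class I gene with close relatives whose reads are hard to assign. Both were rare, at 0.66 to 0.85 CPM in WT.

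Mbp, on chromosome 18 from 82475146 to 82585637 (plus strand), encodes myelin basic protein, which holds the cytoplasmic faces of myelin together. The same locus also makes the golli transcripts of blood and other cells, and the counts sum all of them. It had 148 and 260 counts in WT and 77 and 94 in Trim28 KO, or 7.86 and 13.1 CPM against 3.96 and 4.72 CPM. The Trim28 KO libraries were close together and both lay below the lower WT library. Mbp differed by -1.27 ± 0.27 on the log2 scale (95% interval of -1.83 to -0.72, edgeR quasi-likelihood adjusted p = 0.00166). It was no longer called without WT 2 (log2 fold change of -0.83, adjusted p = 0.0742) or without Trim28 KO 1 (-1.15, adjusted p = 0.0601).

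The genes most like Mbp in pattern were Plag1, which encodes a zinc finger growth regulator (distance of 0.10), and Slc25a27, which encodes a mitochondrial carrier (0.11). Both fell, from 9.93 and 15.0 to 4.99 and 5.97 CPM and from 4.83 and 7.93 to 2.47 and 2.86 CPM. Without Trim28 KO 1 neither was called (edgeR adjusted p = 0.0524 and 0.0848), nor was Slc25a27 without WT 2 (0.152). Among the 8 genes, Erbb3 was nearest to Mbp (0.48), and the closest pair of all was Pmp22 and Sox10 (0.33), while Mbp and Cdh19 were the farthest apart (3.94).

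Pmp22, on chromosome 11 from 63128982 to 63159547 (plus strand), encodes a tetraspan membrane protein of compact myelin whose dosage is critical in human neuropathies. It had 6120 and 6135 counts in WT and 5198 and 4918 in Trim28 KO, or 325 and 310 CPM against 268 and 247 CPM. Both Trim28 KO libraries were lower, but the log2 fold change of -0.30 ± 0.20 (95% interval of -0.72 to 0.11) did not pass the test (edgeR quasi-likelihood adjusted p = 0.332). The interval runs from 0.61 to 1.08 times the WT level. Per length, Pmp22 stood at 120 and 110 times the Sox10 level in WT, against 135 and 187 times in Trim28 KO.

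Of the 6 genes listed as relatives of Pmp22, 5 were tested (median log2 fold change of -0.11). Of the 5, 2 rose and 1 fell, beside 8.64% and 8.77% of all genes tested. Perp, a p53-induced gene of desmosomes, fell by 2.41 ± 0.33 on the log2 scale (adjusted p = 1.19e-05), whereas Emp2 rose by 0.76 ± 0.19 (adjusted p = 0.00530) and Emp3 by 0.59 ± 0.19 (adjusted p = 0.0349), all by edgeR's quasi-likelihood test. EMP2 and EMP3 are epithelial membrane proteins of the same fold as PMP22. Emp2 missed the threshold without Trim28 KO 2 (adjusted p = 0.0582), and Emp3 was no longer called without any of the 4 libraries (adjusted p of 0.0511 to 0.169).

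**Figure D3:**
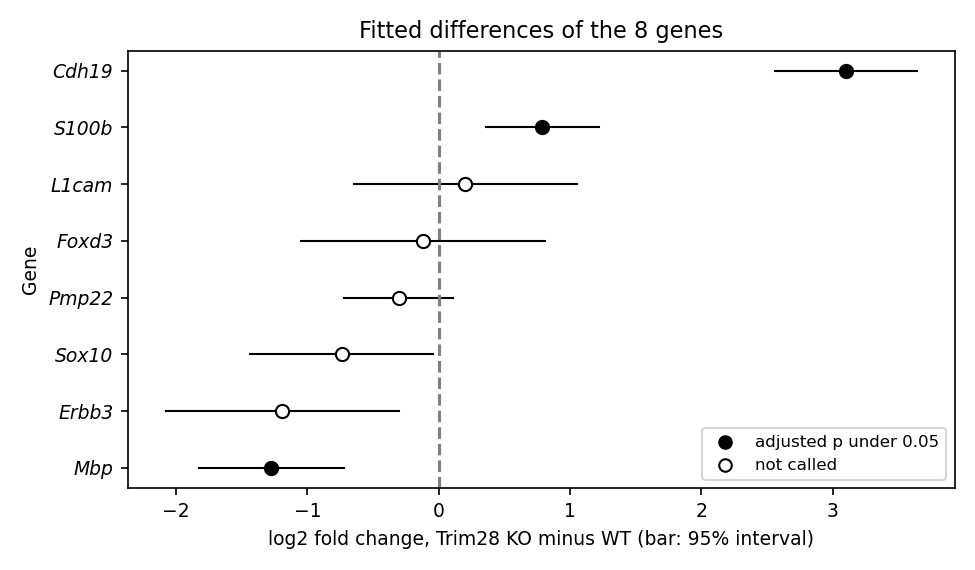
Log2 fold change of each of the 8 genes in Trim28 KO against WT, with its 95% interval (filled points, adjusted p under 0.05; open points, not called). Cdh19 (3.10) and S100b (0.79) lie to the right of 0 and Mbp (-1.27) to the left, and the intervals of Sox10 and Erbb3 lie below 0 although neither gene passed the test after adjustment.

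The other genes listed for peripheral glia gave a background to these differences. In 3 lists of 45 genes, namely regulators of the lineage, other myelin genes and genes of immature or non-myelinating Schwann cells, 35 were tested, of which 11 fell (31.4%, beside 8.77% of all genes) and 1 rose. The log2 fold change was below 0 for 30 of the 35 (85.7%), beside 51.9% of all genes tested, with a median of -0.58. The 11 calls became 6 without Trim28 KO 1, 5 without Trim28 KO 2 and 7 with DESeq2.

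Of 16 other myelin genes, 11 were tested and 5 were called, all lower, with a median log2 fold change of -0.72. Drp2, which encodes a dystrophin-related protein that anchors myelin to its basal lamina, had 8.44 and 11.8 against 2.94 and 5.37 CPM (-1.28 ± 0.29, adjusted p = 0.00355). As with Mbp, WT 2 was the higher WT library, and the genotypes did not overlap. Mal, a raft protein of myelin and epithelia (-1.35 ± 0.43), and Cldn19, the claudin of Schwann cell tight junctions (-2.11 ± 0.64), also fell, with adjusted p-values of 0.0336 and 0.0227 by edgeR's quasi-likelihood test. Gjb1, the gap junction gene of mature myelin, had 0 counts in all 4 libraries, and Pmp2, the fatty acid binding protein of myelin, had 2 counts in all.

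These calls rested on few counts. Mal and Cldn19 were not called by DESeq2 (adjusted p = 0.143 and 0.162), nor without WT 2 (0.253 and 0.356), Trim28 KO 1 (0.164 and 0.143) or Trim28 KO 2 (0.176 and 0.231). With limma-voom Mal had an adjusted p of 0.0535. Drp2 was not called without Trim28 KO 1 (adjusted p = 0.0944).

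Of 14 listed regulators, 10 were tested, of which 3 fell and 1 rose (median log2 fold change of -0.58). Egr2, which encodes the factor that switches on the myelin programme and is also an immediate early gene of many cells, fell 3.92-fold from 15.1 and 12.7 to 4.33 and 2.76 CPM (adjusted p = 5.84e-06). Etv1, an ETS factor, fell 3.76-fold from 6.74 and 9.29 to 1.39 and 2.86 CPM (adjusted p = 2.71e-04), and Nfatc4 fell by 0.65 ± 0.20 on the log2 scale (adjusted p = 0.0299). Id4, an inhibitor of basic helix-loop-helix factors, rose by 0.61 ± 0.20 (adjusted p = 0.0365). Nfatc4 was no longer called without WT 1, Trim28 KO 1 or Trim28 KO 2 (adjusted p of 0.0605 to 0.340), nor Id4 without WT 2 or Trim28 KO 1 (0.132 and 0.389). With limma-voom both missed the threshold (adjusted p = 0.0565 and 0.0577). Sox2 and Pou3f2, factors of immature Schwann cells, were too rare to be tested, with 3 to 8 and 1 to 5 counts a library.

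Of 15 genes of immature and non-myelinating Schwann cells, 14 were tested and 3 were called, all lower, with a median log2 fold change of -0.54. Cdh2, which encodes N-cadherin of precursors and of many mesenchymal cells, fell 3.74-fold from 33.6 and 28.0 to 5.77 and 10.7 CPM (adjusted p = 6.20e-05), the opposite direction to Cdh19. Ptprz1, a receptor phosphatase of glia, fell by 1.48 ± 0.31 on the log2 scale (adjusted p = 0.00365), and Fabp7, the brain-type fatty acid binding protein of glial precursors, by 1.32 ± 0.37 (adjusted p = 0.0145), all by edgeR's quasi-likelihood test. Adgrg6, a receptor needed for myelination (-0.51 ± 0.21, adjusted p = 0.107), and Ngfr, the low-affinity neurotrophin receptor (-0.47 ± 0.23, adjusted p = 0.168), were not called, though Adgrg6 was called without WT 1 (adjusted p = 0.0332). Ptprz1 lost its call without Trim28 KO 1 (adjusted p = 0.103), and Fabp7 without WT 1 or Trim28 KO 2 (0.0766 and 0.161) and with DESeq2 (0.0530).

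**Figure D4:**
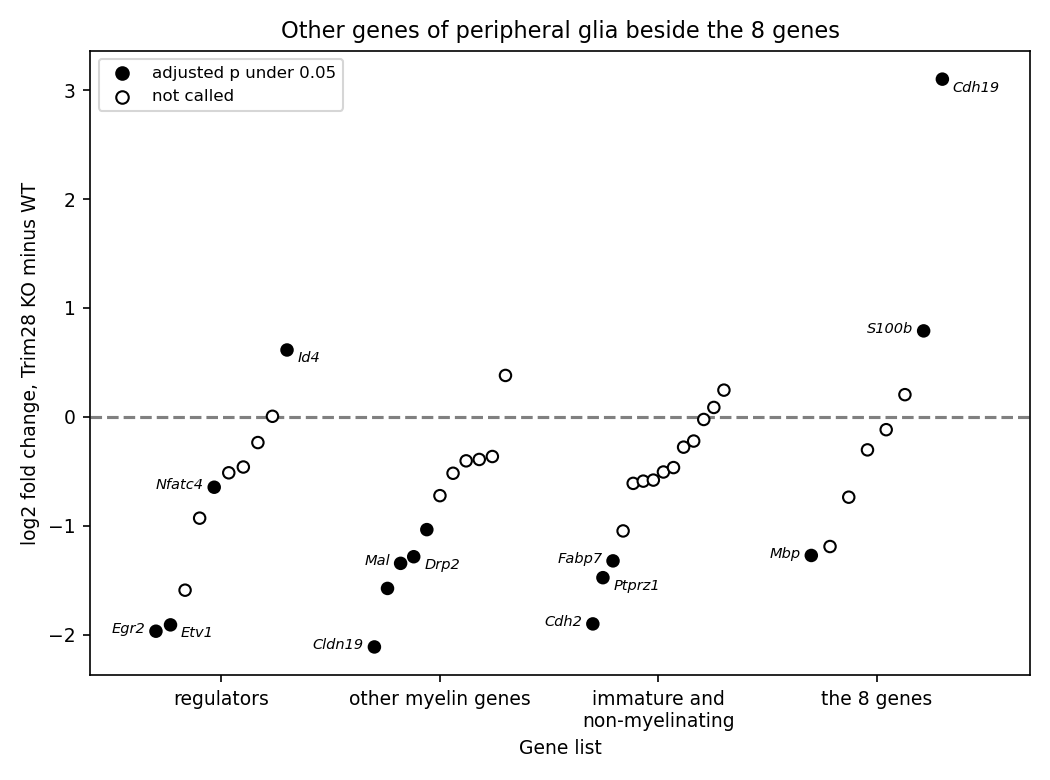
Log2 fold change in Trim28 KO against WT of each tested gene in 3 lists of peripheral glia genes and of the 8 genes (filled, adjusted p under 0.05, with the genes described in the text named; open, not called; within a list, genes are ordered by value). Among the called genes, 11 of 12 in the 3 lists lie below 0, with Mbp, while Cdh19 and S100b lie above.

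Markers of other cells that could share these genes were read in the same libraries. Neurons, whose axons Schwann cells wrap, left little RNA: of 18 neuron markers 6 passed the filter, Snap25 and Chat had 0 counts in all libraries, and the summed level was 15.8 to 20.8 CPM in WT and 20.4 to 20.5 CPM in Trim28 KO. Of the 6, Prph, which encodes peripherin of peripheral axons (2.12 ± 0.41, adjusted p = 6.26e-04), Uchl1 (0.90 ± 0.23, adjusted p = 0.00775) and Rbfox3 (1.78 ± 0.56, adjusted p = 0.0295) rose, and Tubb3 (-1.34 ± 0.37, adjusted p = 0.0192) fell, by edgeR's quasi-likelihood test. By the same test Stmn2 (-0.81 ± 0.32, adjusted p = 0.0847) and Nefm (-1.26 ± 0.56, adjusted p = 0.130) were not called. Both lay lower in both Trim28 KO libraries, and the median log2 fold change of the 6 was 0.04. Uchl1 lost its call without Trim28 KO 1 (adjusted p = 0.0924), Rbfox3 without each of the 4 libraries (0.110 to 0.194) and with DESeq2 (0.186), and Tubb3 without WT 1 or either Trim28 KO library (0.0529 to 0.277). Melanocytes, which also carry Sox10, left little marker RNA. Tyrp1 had 0 counts, while Mitf had 84 and 89 counts in WT and 71 and 87 in Trim28 KO. Kit had 77 and 72 counts in WT and 38 and 52 in Trim28 KO. The melanocyte list summed to 9.75 to 10.1 CPM in WT and 6.69 to 8.28 CPM in Trim28 KO. Its 1 call was Oca2, with 11 and 18 counts in WT and 0 in both Trim28 KO libraries. Of the oligodendrocyte markers Olig1, Olig2 and Opalin had 0 counts in all libraries, and 0 of 2 tested genes were called by edgeR's quasi-likelihood test, by DESeq2 or at an unadjusted p under 0.05. Of 7 neural crest genes 6 were tested, of which 1, the mesenchymal factor Twist1, fell (-0.83 ± 0.24, adjusted p = 0.0271), a call lost without WT 1 or either Trim28 KO library (0.110 to 0.307).

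Marker RNA of several other cell types differed between the genotypes, which does not measure how many cells were present. Chondrocyte markers summed to 112363 and 85737 CPM in WT and 81634 and 104490 CPM in Trim28 KO, overlapping ranges, with 1 of 12 genes, Cnmd, lower (-0.99 ± 0.24, adjusted p = 0.00493, and 0.0591 without Trim28 KO 1). The summed fibroblast markers had 53704 and 36277 CPM in WT against 17139 and 22116 CPM in Trim28 KO, most of it from Col1a1 in WT (37380 and 21087 CPM). Of 9 genes 5 were called, all lower, among them Col1a1 (-1.53 ± 0.32, adjusted p = 0.00145, and 0.0507 without Trim28 KO 1) and Postn (-1.15 ± 0.24, adjusted p = 0.00160). Col6a3 (0.46 ± 0.24), Lum (0.42 ± 0.23) and Dcn (0.11 ± 0.22), named after their values were seen, had log2 fold changes above 0 and were not called (edgeR adjusted p = 0.199, 0.231 and 0.784), and that of Dcn turned to -0.13 without Trim28 KO 1. Macrophage markers were higher, at 134 and 138 CPM in WT and 439 and 262 CPM in Trim28 KO, with 6 of 10 genes higher, led by C1qa (2.19 ± 0.25, adjusted p = 1.45e-05). Like Cdh19 and S100b, they were highest in Trim28 KO 1. Erythroid markers were lower in 6 of 6 tested genes, as was Mbp, at 255 and 349 CPM in WT and 75.5 and 81.7 CPM in Trim28 KO. Of 5 perineurium genes 4 were tested: Slc2a1, a glucose transporter gene of many cells, rose 1.99-fold, while Moxd1 (-1.64 ± 0.26) and Itgb4 (-0.97 ± 0.24) fell, with adjusted p-values of at most 0.00720, and Itgb4 was not called without WT 1 or either Trim28 KO library (adjusted p of 0.0576 to 0.137). Skeletal muscle markers ran from 481 to 1262 CPM with no order by genotype, with 1 of 11 genes higher and 1 lower. Endothelial markers summed to 511 and 436 CPM in WT and to a lower 366 and 423 CPM in Trim28 KO, with a median log2 fold change of -0.24 and 0 of 7 genes above 0. Epidermal markers ran from 6.82 to 10.2 CPM, with overlapping genotypes. Of these, 0 of 7 endothelial genes and 0 of 1 epidermal gene were called by edgeR's quasi-likelihood test or by DESeq2, with 1 endothelial gene lower and 0 epidermal genes at an unadjusted p under 0.05. The part of these shifts in the differences of Cdh19, S100b and Mbp was not tested.

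**Figure D5:**
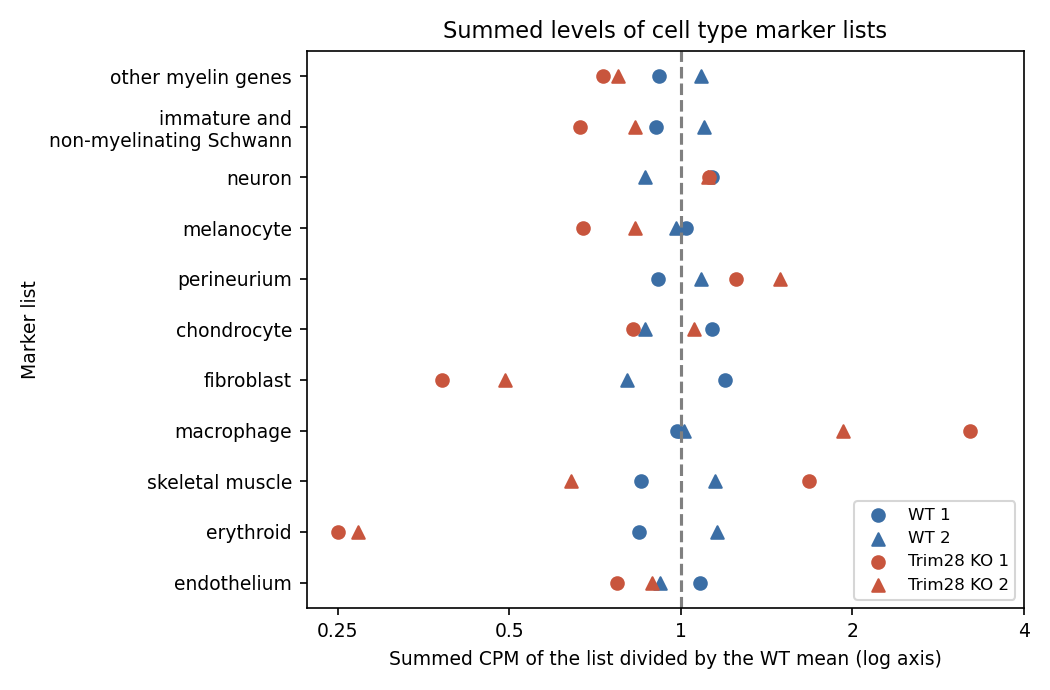
Summed CPM of each marker list in each library, divided by the mean of both WT libraries, on a log axis (blue, WT; red, Trim28 KO; circles, replicate 1; triangles, replicate 2). The summed fibroblast list, most of it Col1a1 in WT, and the erythroid list lie below the WT libraries in both Trim28 KO libraries. The macrophage list lies above them. The other myelin genes lie moderately below, a sum held mostly by Ncmap and Cmtm5, which were not called. The chondrocyte list, most of it Col2a1, overlaps.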

How the data were processed

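The 8 genes, the gene lists and the tests were chosen with earlier results of these data known. The deposited values are raw counts. Per the file headers, featureCounts 1.6.4 ran in paired-end mode over exons grouped by gene name, with the GENCODE M23 annotation on mm10, and was given no setting for strandedness, multi-mapped or multi-overlapping reads. The table also gives the exon length of each gene in bases, used for RPKM. The submitters' processing notes also name Subread 1.6.4 and edgeR. For the aligner, nothing is given in the sources used here.

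Genes were kept by edgeR's filterByExpr and counts scaled by TMM. Trim28 KO (n = 2) was compared with WT (n = 2) with the quasi-likelihood test of edgeR 4.0.16 in R 4.3.3, with robust estimates and no covariate, and Benjamini-Hochberg adjustment ran over all 16639 genes. The standard error is the log2 fold change divided by the square root of F. The steps were also run on simulated counts drawn with the spread fitted to these data, and the outcome is not reported here. A count of 3 was 0.151 to 0.159 CPM, and counting error adds to the spread between libraries most in rare genes. Positions are from GENCODE release M21 on GRCm38, the assembly of mm10, and windows from RefSeq.

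Named were the 8 genes, Trim28, for each called gene the 2 genes nearest in pattern (mean of at least 1 CPM), and of each of 19 lists up to 5 genes with the smallest p-values plus, for markers of other cells, the most abundant. Fewer were printed, and genes with 0 or few counts were added, after values were seen, and some listed genes are not reported here. The chi-square between replicates was 33.9 (WT) and 27.1 (Trim28 KO) per degree of freedom, so each library was counted as 1 sample. Alternatives were upper-quartile or RLE factors, unscaled library sizes, no filter, at least 5 CPM in 2 libraries, DESeq2 1.42.0, limma-voom (limma 3.58.1), edgeR's exact test, a replicate block, scaling without muscle, erythroid and macrophage list genes, and leaving out each library, with genes filtered again.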

Additional observations from a re-analysis of the deposited data

How the results depend on the processing

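Outside the settings that left out a library, the 8 genes kept their direction and their side of the threshold in every alternative that could be run. At least 5 CPM in 2 libraries left Sox10, Foxd3, Erbb3 and L1cam untested. With a library left out, the log2 fold change ranged from -1.57 to -0.83 for Mbp (not called without WT 2 or Trim28 KO 1), 0.62 to 0.96 for S100b (not called without Trim28 KO 1), -1.52 to -0.69 for Erbb3 (called without WT 1), -0.63 to 0.60 for Foxd3 and -0.10 to 0.52 for L1cam. Foxd3 turned to 0.60 and 0.27, and L1cam to -0.01 and -0.10, without WT 1 and Trim28 KO 2. Erbb2 ranged from -0.30 to 0.058, turning without WT 1, and Dcn from -0.13 to 0.33, turning without Trim28 KO 1. Of the 8 genes 1 to 2 were then called higher and 0 to 2 lower. In the 3 glia lists 0 to 1 were called higher and 5 to 10 lower, beside 7 lower with DESeq2 and 0 higher with limma-voom. Over all 19 lists 17 to 30 were called lower, beside 34 with all libraries, and over all genes 702 to 1442 higher and 572 to 1406 lower. The cause was not tested; with a library left out, the lone sample is assumed to vary like the other genotype.

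With the replicate number as a block, 2 of the 8 genes were called higher and 1 lower, as without it, and 1477 genes higher and 1444 lower over all genes. Mbp stood at -1.24, S100b at 0.78 and Cdh19 at 3.07 under the block. Deviations of same-numbered libraries had a correlation of -0.08 over 16639 genes, and the labels do not say what a shared number stands for. This is 1 correlation and does not show whether a litter, batch or day was shared. Under the block Mal, Tubb3 and Twist1 had adjusted p-values of 0.0527, 0.0519 and 0.0676. Sox10, Foxd3, Erbb3 and L1cam had 17 to 72 counts a library.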
